A study of Mus musculus with 12 samples.

Results

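The 10 genes described here encode proteins that coat cytosolic lipid droplets or help to form them: the perilipins Plin2, Plin3, Plin4 and Plin5, the droplet fusion protein Cidec, the endoplasmic reticulum proteins Bscl2, Fitm1 and Fitm2, and the droplet proteins Hilpda and Hsd17b11. They were chosen by symbol among the 33200 genes of a count table from mouse iWAT, the inguinal white fat that lies under the skin, and all 10 were found. The tissue came from C57BL/6 mice with a global, CRISPR/Cas-made deletion of Nrep (KO, genotype Nrep-/-) and from wild-type C57BL/6 mice (WT). All animals were 16 weeks old and had a standard maintenance diet under specific-pathogen-free conditions, with 3 KO and 3 WT libraries described as biological replicates. The knockout is in every cell type, so a difference in fat cannot be assigned to loss of the gene in adipocytes. The study's 6 liver samples are not analysed here.

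Adipocytes store triglyceride in a droplet that buds from the endoplasmic reticulum. Seipin, the product of Bscl2, and the FITM proteins act at the budding site, perilipins then cover the surface and control access of lipases, and CIDEC passes lipid from small droplets to large ones until a fat cell holds mainly a single droplet. Perilipins differ by tissue: PLIN1 is the adipocyte coat, PLIN2 and PLIN3 are found in most cells, PLIN4 is abundant in white fat, and PLIN5 is known from tissues that burn fat.

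Values are given as CPM, counts brought to the same total in each library, with TMM normalisation to adjust that total for differences in RNA make-up. Library totals lay between 17970451 and 20369345 estimated counts, where a single count is worth 0.0466 to 0.0574 CPM. Nrep had 2, 2 and 5 counts in KO replicates 1, 2 and 3, against 1404, 1640 and 1300 in WT replicates 1, 2 and 3. The tissue label was checked with 18 adipocyte markers, all detected in all 6 libraries, with Adipoq (adiponectin) at 1571 to 2879 CPM in KO and 1306 to 1574 CPM in WT. KO replicate 2 stood near the WT libraries on these markers. Their mean log2 CPM was 9.96, 9.35 and 10.18 in KO replicates 1, 2 and 3, against 9.08, 8.93 and 9.29 in WT replicates 1, 2 and 3.

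Promoter windows of 300 bases, 250 before and 50 after the start of transcription, were available from RefSeq (GRCm38.p6) for all 10 genes, 15 windows in all because some have several starts. A set of 6 is printed: the coat genes Plin2, Plin4 and Plin5, of which Plin4 and Plin5 lie next to each other on chromosome 17, the related pair Fitm1 and Fitm2, absent and present in WT counts, and the second of 2 overlapping windows of Hilpda, a gene known to respond to low oxygen. Capitals mark matches on either strand to TATAA (TATA box), CACGTG (E-box), ACGTG (hypoxia response core, part of the E-box), AGGTCA (the repeat unit of nuclear receptor sites), CCAAT and GGGCGG (GC box), read 5′ to 3′ along the gene's own strand.
Plin2, chr4:86670010-86670309, minus strand: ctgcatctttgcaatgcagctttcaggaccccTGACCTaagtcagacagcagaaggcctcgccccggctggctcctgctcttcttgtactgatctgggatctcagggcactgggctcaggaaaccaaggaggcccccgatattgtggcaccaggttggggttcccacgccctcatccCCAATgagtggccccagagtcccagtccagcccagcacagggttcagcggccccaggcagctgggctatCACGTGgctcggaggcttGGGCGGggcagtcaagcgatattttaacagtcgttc
Plin4, chr17:56109733-56110032, minus strand: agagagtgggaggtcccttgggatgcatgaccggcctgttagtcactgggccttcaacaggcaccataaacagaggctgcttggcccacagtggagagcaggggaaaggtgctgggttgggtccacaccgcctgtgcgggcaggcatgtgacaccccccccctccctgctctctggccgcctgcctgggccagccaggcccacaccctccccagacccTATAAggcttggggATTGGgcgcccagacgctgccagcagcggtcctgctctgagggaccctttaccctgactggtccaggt
Plin5, chr17:56117499-56117798, minus strand: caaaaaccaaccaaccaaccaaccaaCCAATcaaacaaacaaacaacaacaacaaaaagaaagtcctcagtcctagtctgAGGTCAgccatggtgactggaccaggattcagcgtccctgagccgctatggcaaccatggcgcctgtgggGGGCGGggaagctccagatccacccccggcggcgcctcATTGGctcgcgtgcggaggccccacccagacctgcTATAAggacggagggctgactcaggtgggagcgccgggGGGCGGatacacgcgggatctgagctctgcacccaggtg
Fitm1, chr14:55575424-55575723, plus strand: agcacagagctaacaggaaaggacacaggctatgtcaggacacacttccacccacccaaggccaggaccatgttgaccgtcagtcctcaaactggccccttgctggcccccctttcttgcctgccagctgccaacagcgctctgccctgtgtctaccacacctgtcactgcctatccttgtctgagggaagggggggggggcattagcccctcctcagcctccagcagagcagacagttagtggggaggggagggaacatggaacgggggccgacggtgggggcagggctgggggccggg
Fitm2, chr2:163472580-163472879, minus strand: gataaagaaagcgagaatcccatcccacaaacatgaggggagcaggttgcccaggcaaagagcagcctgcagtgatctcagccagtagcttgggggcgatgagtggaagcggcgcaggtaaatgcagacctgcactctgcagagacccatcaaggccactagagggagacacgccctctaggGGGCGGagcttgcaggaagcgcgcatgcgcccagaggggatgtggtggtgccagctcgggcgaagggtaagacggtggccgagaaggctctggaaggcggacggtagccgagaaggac
Hilpda, chr6:29272376-29272675, plus strand: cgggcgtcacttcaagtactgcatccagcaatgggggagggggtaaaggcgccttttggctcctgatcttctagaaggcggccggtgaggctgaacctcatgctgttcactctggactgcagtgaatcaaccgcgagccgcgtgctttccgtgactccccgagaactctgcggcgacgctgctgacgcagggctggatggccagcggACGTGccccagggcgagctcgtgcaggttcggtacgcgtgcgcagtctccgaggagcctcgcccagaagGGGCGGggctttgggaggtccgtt
Plin4 and Plin5 both hold a TATA box near the start, at -32 and -27, where 24.9% of all 32851 windows hold TATAA somewhere. The Plin2 window has an E-box at -4, a motif in 7.15% of windows, and the Hilpda window has the hypoxia core at -43, a motif in 19.6%, which its first window lacks. AGGTCA is in the Plin2 and Plin5 windows and in 16.3% of all windows, CCAAT in 37.4% and GGGCGG in 35.7%. The Fitm1 window and both Cidec windows hold none of these letters. A match describes the letters only.

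None of the 10 genes passed the test across all genes. Of the 9 members other than Fitm1, 5 were higher in every KO library than in any WT library: Plin5, Cidec, Bscl2, Fitm2 and Hsd17b11. All 10 passed the filter on low counts, but Fitm1 had no WT count and passed through the KO libraries alone, so it is left out of these counts. Plin2, Plin3, Plin4 and Hilpda overlapped between the groups. In edgeR's quasi-likelihood test at an adjusted p of 0.05, 0 members were higher and 0 lower in KO, against 0.865% and 0.162% of the 16656 genes tested, or 1.03% in either direction. Every KO library lay above every WT library for 15.2% of tested genes. With an unadjusted p under 0.05, 4 of the 9 were higher, against 12.8% of tested genes, and 0 lower, against 9.79%. The median log2 fold change of the 9, KO over WT, was 0.43, and that of all tested genes -0.06. The adipocyte markers lay higher in the same libraries, with a summed level of 32011 to 55991 CPM in KO and 22822 to 31849 CPM in WT. In bulk tissue, more cells of a type and more RNA per cell cannot be told apart.

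The absence of calls depended on the method and on single libraries. DESeq2 called 4 of the 9 higher (Plin5, Cidec, Bscl2 and Fitm2), with adjusted p-values from 0.00596 to 0.0402, where it called 7.34% of genes higher. Without KO replicate 2, edgeR called 6 higher (those with Plin4 and Hsd17b11), where it called 14.5% of genes higher; without any other single library it called 0. limma-voom called 0. At an adjusted p of 0.10, chosen after seeing the data, Plin5 was higher and 0 were lower, where edgeR called 5.52% of genes higher and 2.75% lower.

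**Figure D1:**
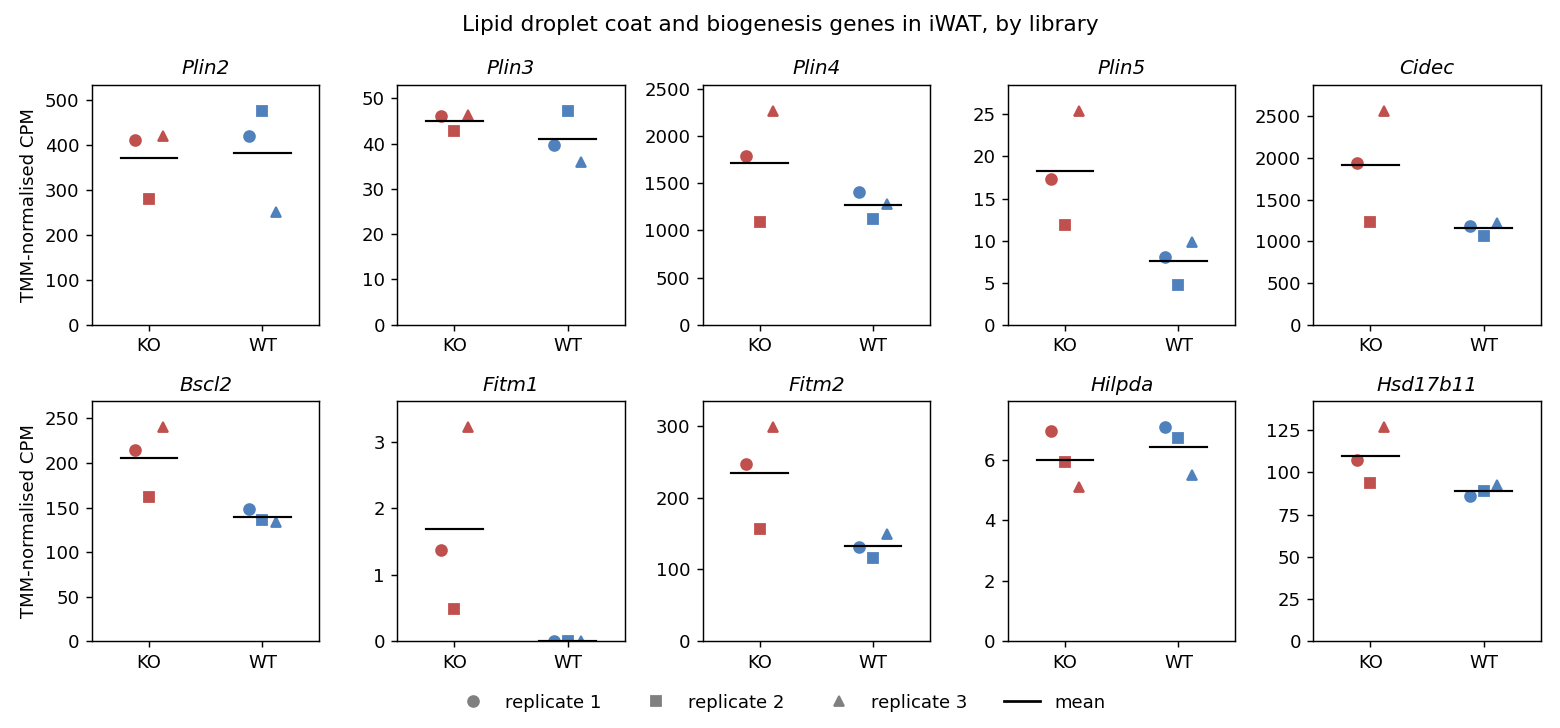
TMM-normalised CPM of each of the 10 genes on its own linear axis from 0, KO left of WT, with 1 point per library (the marker shape gives the replicate) and a line at the group mean. KO replicate 2 is the lowest KO library in every panel except that of Hilpda, where KO replicate 3 is lowest at 5.11 CPM.

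Plin2, the coat protein of droplets in most cell types, overlapped widely between the groups. It had 411, 279 and 420 CPM in KO replicates 1, 2 and 3, against 420, 476 and 251 CPM in WT replicates 1, 2 and 3. The lowest value of all was a WT library and so was the highest. Its log2 fold change was -0.05 (SE 0.268, 95% interval -0.67 to 0.57, edgeR adjusted p = 0.930), so that the interval spans 0.630-fold to 1.49-fold. The sign turned without KO replicate 2 (0.18), WT replicate 1 (0.03) or WT replicate 2 (0.14). Macrophages also use PLIN2, and of 15 macrophage markers 0 passed in edgeR, 12 had a negative log2 fold change, 9 lay below every WT library in all KO libraries, and 11 were lower at an unadjusted p under 0.05, where 13.1% of all tested genes lay below every WT library and 9.79% had such a p. DESeq2 called 6 lower and 1 higher, where it called 600 of 16654 genes lower and 7.34% higher, and limma-voom called 0. Lyz2, lysozyme, had 1156 ± 292 CPM in KO and 1979 ± 384 CPM in WT (SD, n = 3 each). Without Lpl, which adipocytes share, they summed to 2230 to 2448 CPM in KO and 3080 to 4448 CPM in WT, and none was at 0. Within WT, Plin2 was ordered as the macrophage marker Cd68, named after its values were seen, which had 134.6, 182 and 73.7 CPM in WT replicates 1, 2 and 3, while in KO Cd68 had 47.5, 53.6 and 49.4 CPM and the order differed. The part of macrophage RNA in the Plin2 values was not tested.

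Plin3, a cytosolic perilipin that joins nascent droplets, varied least among the members' KO values. It had 46.1, 42.8 and 46.2 CPM in KO replicates 1, 2 and 3, against 39.8, 47.3 and 36.0 CPM in WT replicates 1, 2 and 3. WT replicate 2 was above all KO libraries, and the log2 fold change of 0.13 (95% interval -0.17 to 0.43, edgeR adjusted p = 0.548) turned to -0.01 with library totals as the only scaling.

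Plin4, the large perilipin abundant in white fat, had 1793, 1086 and 2271 CPM in KO replicates 1, 2 and 3, against 1413, 1117 and 1284 CPM in WT replicates 1, 2 and 3. KO replicate 2 was below all WT libraries and the other KO libraries above them. The log2 fold change was 0.43 (SE 0.278, edgeR adjusted p = 0.376), and 0.73 without KO replicate 2 (adjusted p = 0.0207). It shares 17 exon bases with Hdgfl2 on the opposite strand, a gene with 510 to 708 counts in KO and 700 to 807 in WT against at least 22053 for Plin4.

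Plin5, which ties droplets to mitochondria in fat-burning tissues, had the largest fold change of the perilipins among the members. It had 17.3, 11.9 and 25.5 CPM in KO replicates 1, 2 and 3, against 8.09, 4.76 and 9.84 CPM in WT replicates 1, 2 and 3. The groups did not overlap. The log2 fold change was 1.27 (SE 0.345, 95% interval 0.46 to 2.07), or 2.41-fold, with edgeR adjusted p = 0.0936 and DESeq2 adjusted p = 0.00596. Over 16 alternatives it stayed between 0.95 and 1.56. Its neighbour Plin4 is transcribed in the same direction, and its own fold change was smaller, a difference that was not tested.

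Plin5 is also a gene of brown and beige fat, and the brown and beige list is given beside it. Of 13 brown and beige markers 0 passed in edgeR, 6 were higher in DESeq2, which called 7.34% of genes higher, and 0 passed in limma-voom. Without KO replicate 2, edgeR called 6 higher, where it called 14.5% of genes higher. With replicate number as a block it called 10 higher, against 790 of 16656 genes. At an unadjusted p under 0.05 in edgeR, 7 were higher, against 12.8% of tested genes. All 13 had a positive log2 fold change, and 5 were above every WT library in all KO libraries, against 15.2% of tested genes. They summed to 284 to 611 CPM in KO and 120 to 304 CPM in WT, with no marker at 0, and the sum of KO replicate 2 was below that of WT replicate 3. Cidea, a droplet protein typical of brown fat, had 192, 145 and 280 CPM in KO replicates 1, 2 and 3, against 103, 44.5 and 138 CPM in WT replicates 1, 2 and 3. This is the order of the 6 libraries in Plin5, and also in the adipocyte markers Plin1, Lipe, Pnpla2 and Fabp4 and in Fitm2. The order is thus not particular to brown or beige genes. Ebf2, a brown fat transcription factor, overlapped (37.7 ± 12.6 CPM in KO, 30.9 ± 5.84 in WT, SD, n = 3 each). Cpt1b, the carnitine palmitoyltransferase of muscle and brown fat, named after its values were seen, had 40.3, 23.7 and 58.2 CPM in KO replicates 1, 2 and 3, against 14.4, 4.99 and 25.9 CPM in WT replicates 1, 2 and 3. The part of brown, beige or muscle RNA in the Plin5 values was not tested.

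Cidec, the fusion protein that makes the single large droplet of white adipocytes, was the most abundant member per length. It had 1940, 1238 and 2568 CPM in KO replicates 1, 2 and 3, against 1183, 1067 and 1220 CPM in WT replicates 1, 2 and 3. The groups were separate, with KO replicate 2 close to WT replicate 3. The WT libraries were close together (SD 6.89% of the mean), the KO libraries were not (34.7%). The log2 fold change was 0.73 (SE 0.271), or 1.66-fold, with edgeR adjusted p = 0.169 and DESeq2 adjusted p = 0.0402.

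**Figure D2:**
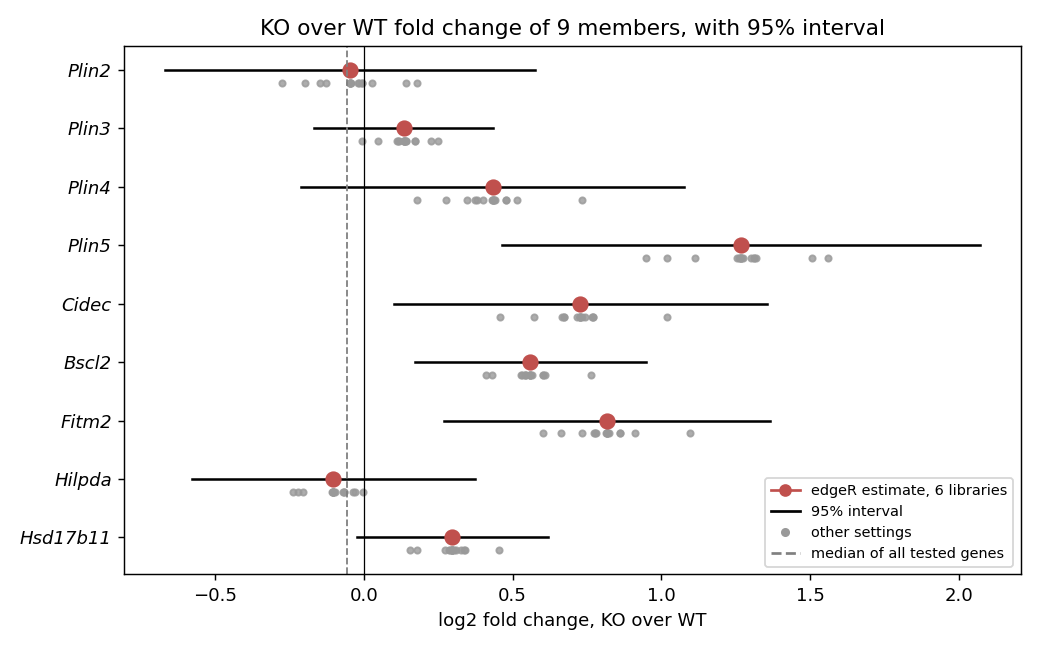
Log2 fold change, KO over WT, of 9 members (Fitm1, at 0 in WT, is left out): red points are edgeR estimates, black lines 95% intervals, grey points the other settings and single-library omissions, and the dashed line the median of all tested genes at -0.06. The intervals of Plin5, Cidec, Bscl2 and Fitm2 lie above 0 before adjustment, and none of the 9 passed after it.

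Bscl2, seipin, whose loss causes congenital generalised lipodystrophy in people, had 214, 162 and 240 CPM in KO replicates 1, 2 and 3, against 149, 136 and 134 CPM in WT replicates 1, 2 and 3. All KO libraries were above all WT libraries. The log2 fold change was 0.56 (SE 0.168, 95% interval 0.17 to 0.95), or 1.47-fold (edgeR adjusted p = 0.110, DESeq2 adjusted p = 0.0247). Bscl2 overlaps Gng3 on the opposite strand, which had 7 to 10 counts in KO and 4 to 10 in WT against at least 2794 for Bscl2. It also shares 239 exon bases with AC129217.1 on the same strand, which had at most 1.30 counts in KO and 3.71 in WT.

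Fitm2, the widely expressed FITM protein that binds lipid in the endoplasmic reticulum, had 247, 156 and 298 CPM in KO replicates 1, 2 and 3, against 132, 117 and 149 CPM in WT replicates 1, 2 and 3. KO replicate 2 was the KO library nearest to WT. The log2 fold change was 0.82 (SE 0.237, 95% interval 0.27 to 1.37), or 1.76-fold (edgeR adjusted p = 0.102, DESeq2 adjusted p = 0.0143). Without KO replicate 2 it was 1.10 (adjusted p = 0.00428). Fitm2 shares 227 exon bases with 2310001K24Rik on the opposite strand, which had 3 to 9 counts in KO and 0 to 5 in WT. Fitm2 itself had at least 2480 counts.

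Fitm1, the FITM protein of skeletal muscle, was read in KO libraries and had no count in WT. It had 24, 10 and 58 counts in KO replicates 1, 2 and 3, against 0, 0 and 0 in WT, where a count of 0 allows up to 0.140 to 0.160 CPM (3 counts per library, counting error only). The KO mean of 1.70 CPM was at least 10.6-fold higher than the highest of those floors. KO replicate 3 holds most of the reads, and without it the mean was 0.935 CPM, at least 5.86-fold higher. No p is given, since the gene was tested only because of its KO counts. Fitm1 shares 109 exon bases with Gm15932 on the opposite strand. Gm15932 had 2 counts in KO replicate 3 and 0 in KO replicates 1 and 2 and in WT.

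Skeletal muscle markers were high in the same libraries. Of 15 markers 14 were tested, all but Myh2. In edgeR 12 rose in KO and 0 fell, against 0.865% and 0.162% of tested genes, with 14 higher in DESeq2 and 1 in limma-voom. Markers near 0 in WT passed the filter on low counts through the KO libraries alone, so they could only be called higher. Their calls are therefore not read as a test. Without KO replicate 1, KO replicate 3, WT replicate 1 or WT replicate 2, 0 passed. The list summed to 730 to 4381 CPM in KO and 11.8 to 17.7 CPM in WT. Ckm, Myh4, Pvalb, Myoz1 and Tcap were at 0 counts in at least 1 WT library. KO replicate 2 was lowest for the summed markers and for Fitm1. Myh4, a fast myosin, had 940, 150 and 624 CPM in KO replicates 1, 2 and 3, against 0.106, 0.0466 and 0 CPM in WT replicates 1, 2 and 3. Mb, myoglobin of oxidative fibres, named after its values were seen, had 4.70, 0.493 and 31.6 CPM in KO replicates 1, 2 and 3, against 0.213, 0.140 and 0.143 CPM in WT replicates 1, 2 and 3. Mb and Fitm1 were both highest in KO replicate 3, and Myh4 in KO replicate 1. Among the KO libraries, replicate 3 was also the highest for every other member except Hilpda, so this peak is not particular to Mb and Fitm1. Acta1, skeletal actin, had 600 ± 406 CPM in KO and 9.80 ± 3.10 CPM in WT (SD, n = 3 each). The part of muscle RNA in the Fitm1 reads was not tested.

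**Figure D3:**
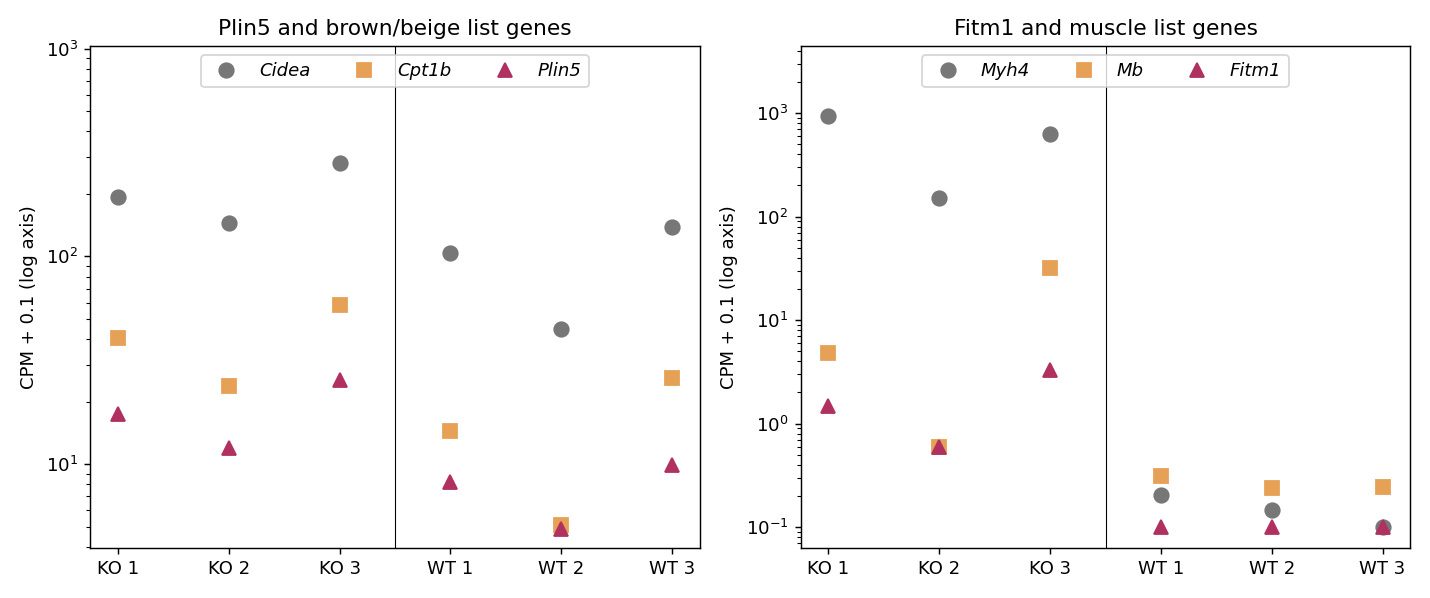
CPM + 0.1 on a log axis in the 3 KO and 3 WT libraries for Plin5 with Cidea and Cpt1b (left) and for Fitm1 with Myh4 and Mb (right). Plin5 and Cidea order the 6 libraries alike, an order that adipocyte markers such as Plin1, not drawn here, also have. Fitm1 sits at the 0 level in all WT libraries, where Myh4 and Mb are near it.

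Hilpda, which inhibits the lipase ATGL and is induced by hypoxia, was low in both groups. It had 6.94, 5.91 and 5.11 CPM in KO replicates 1, 2 and 3, against 7.08, 6.72 and 5.49 CPM in WT replicates 1, 2 and 3. The ranges overlapped almost fully. Its log2 fold change was -0.10 (SE 0.206, 95% interval -0.58 to 0.37, edgeR adjusted p = 0.779). Of 17 other hypoxia target genes 0 passed in edgeR, 2 were higher and 1 lower in DESeq2, and 0 passed in limma-voom. DESeq2 called 7.34% of all genes higher and 600 of 16654 lower. Without KO replicate 2, edgeR called 6 of the 17 higher and 0 lower. It then called 14.5% of all genes higher and 1811 of 16656 lower. At an unadjusted p under 0.05 in edgeR, 4 were higher and 3 lower, against 12.8% and 9.79% of tested genes. Of the 17, 9 had a positive and 8 a negative log2 fold change, and their median was 0.02. The most abundant, Pfkfb3 and Bnip3, glycolytic and mitophagy genes, had log2 fold changes of 0.30 and 0.55 (edgeR adjusted p = 0.412 and 0.315).

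Hsd17b11, a short-chain dehydrogenase that sits on droplets, had 107.5, 93.9 and 126.7 CPM in KO replicates 1, 2 and 3, against 85.9, 88.6 and 92.3 CPM in WT replicates 1, 2 and 3. All KO libraries were above all WT libraries, KO replicate 2 and WT replicate 3 being the closest. The log2 fold change was 0.30 (SE 0.139, edgeR adjusted p = 0.247), and 0.45 without KO replicate 2 (adjusted p = 0.0282).

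Levels of different genes were compared as CPM per kilobase of merged exons. In KO, Cidec led with 1032 CPM per kilobase, followed by Plin4 (297), Plin2 (105), Fitm2 (58.9), Bscl2 (34.8), Hsd17b11 (33.5), Plin3 (11.9), Plin5 (8.73), Hilpda (5.43) and Fitm1 (1.75). In WT the order was Cidec (623), Plin4 (220), Plin2 (109), Fitm2 (33.4), Hsd17b11 (27.2), Bscl2 (23.6), Plin3 (10.8), Hilpda (5.83), Plin5 (3.62) and Fitm1 (0). In WT no neighbours in that order overlapped in range. In KO the range of Bscl2 overlapped those of Fitm2 and of Hsd17b11, and that of Plin5 those of Plin3 and of Hilpda. With the longest transcript as length, Bscl2 (39.9) and Hsd17b11 (39.8) stood above Fitm2 (33.4) in WT.

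The mix of perilipin transcripts held more Plin1 and more Plin5 in every KO library. Plin1, the adipocyte coat that is not among the 10, made up 39.3%, 40.4% and 38.4% of the summed perilipin level per kilobase in KO replicates 1, 2 and 3, against 26.9%, 25.6% and 32.5% in WT replicates 1, 2 and 3. The groups were separate and KO replicate 2 was not apart from the other KO libraries. Plin5 made up 1.24% ± 0.143 in KO and 0.759% ± 0.270 in WT (SD, n = 3 each), also without overlap. Plin2 made up 15.4% ± 1.52 in KO and 22.7% ± 6.83 in WT, Plin4 42.2% ± 2.84 in KO and 46.0% ± 3.61 in WT, and Plin3 1.80% ± 0.502 in KO and 2.27% ± 0.375 in WT, all overlapping. These shares are a description with no test. With the longest transcript as length Plin1 came to 46.7% in KO and 33.9% in WT.

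**Figure D4:**
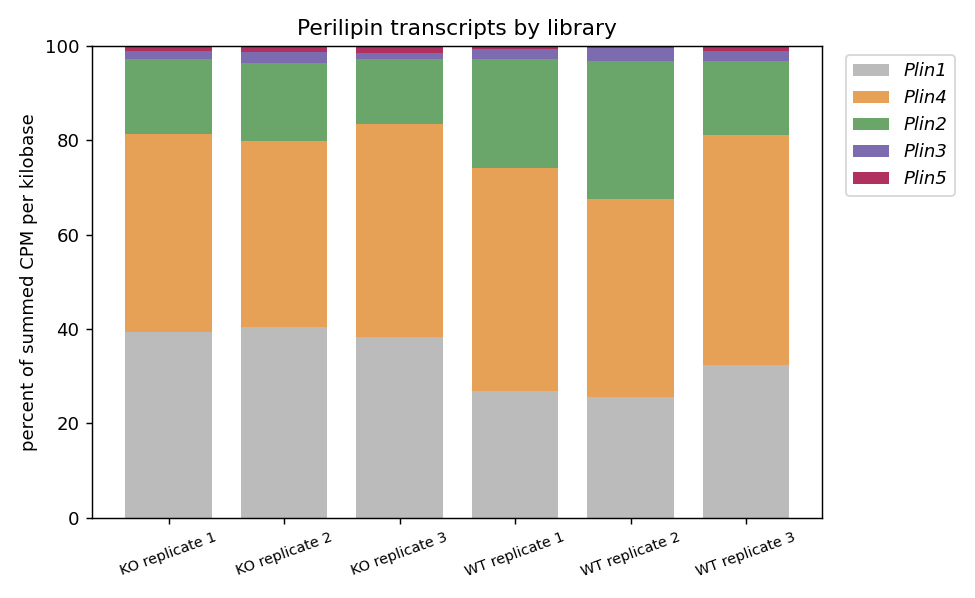
Share of each perilipin in the summed CPM per kilobase of Plin1 to Plin5, as stacked bars for the 3 KO libraries (left) and the 3 WT libraries (right). The Plin1 share is 38.4% to 40.4% in KO and 25.6% to 32.5% in WT, and WT replicate 2 has the largest Plin2 share at 29.3%.

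The members were then set against the adipocyte markers within each library, as log2 CPM minus the mean log2 CPM of the 18 markers, which hardly depends on library scaling. Cidec, Fitm2 and Bscl2, higher as CPM in every KO library, overlapped between the groups on this scale. Fitm2 was at -2.01 ± 0.05 in KO and -2.06 ± 0.01 in WT (SD, n = 3 each; exact two-sided permutation p = 0.2), and Cidec at 1.01 ± 0.12 in KO and 1.07 ± 0.09 in WT (exact permutation p = 0.6). Bscl2 was at -2.17 ± 0.14 in KO and -1.98 ± 0.21 in WT (exact permutation p = 0.3). With 3 against 3 libraries the smallest p is 0.1, so no single comparison can pass 0.05, and 10 genes were compared.

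Relative to the markers, Plin4 and Hsd17b11 were lower in every KO library and Plin5 higher. Of all tested genes, 46.9% lay lower in every KO library on this scale and 1.9% higher, with a median KO minus WT of -0.79, so the lower values of Plin4 (-0.35) and Hsd17b11 (-0.44) were not apart from those of other genes. Plin4 was at 0.85, 0.73 and 0.97 in KO replicates 1, 2 and 3, against 1.38, 1.19 and 1.04 in WT replicates 1, 2 and 3. Hsd17b11 was at -3.21, -2.80 and -3.19 in KO, against -2.66, -2.46 and -2.76 in WT. Plin5 was at -5.84, -5.77 and -5.51 in KO, against -6.05, -6.65 and -5.97 in WT. Each of the 3 had an exact permutation p = 0.1, the smallest possible. Plin2 (KO minus WT -0.75), Plin3 (-0.59) and Hilpda (-0.83) were lower on average with overlapping groups and exact permutation p of 0.3, 0.2 and 0.2. Fitm1 is not read on this scale, since its WT values come from the added prior count.

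**Figure D5:**
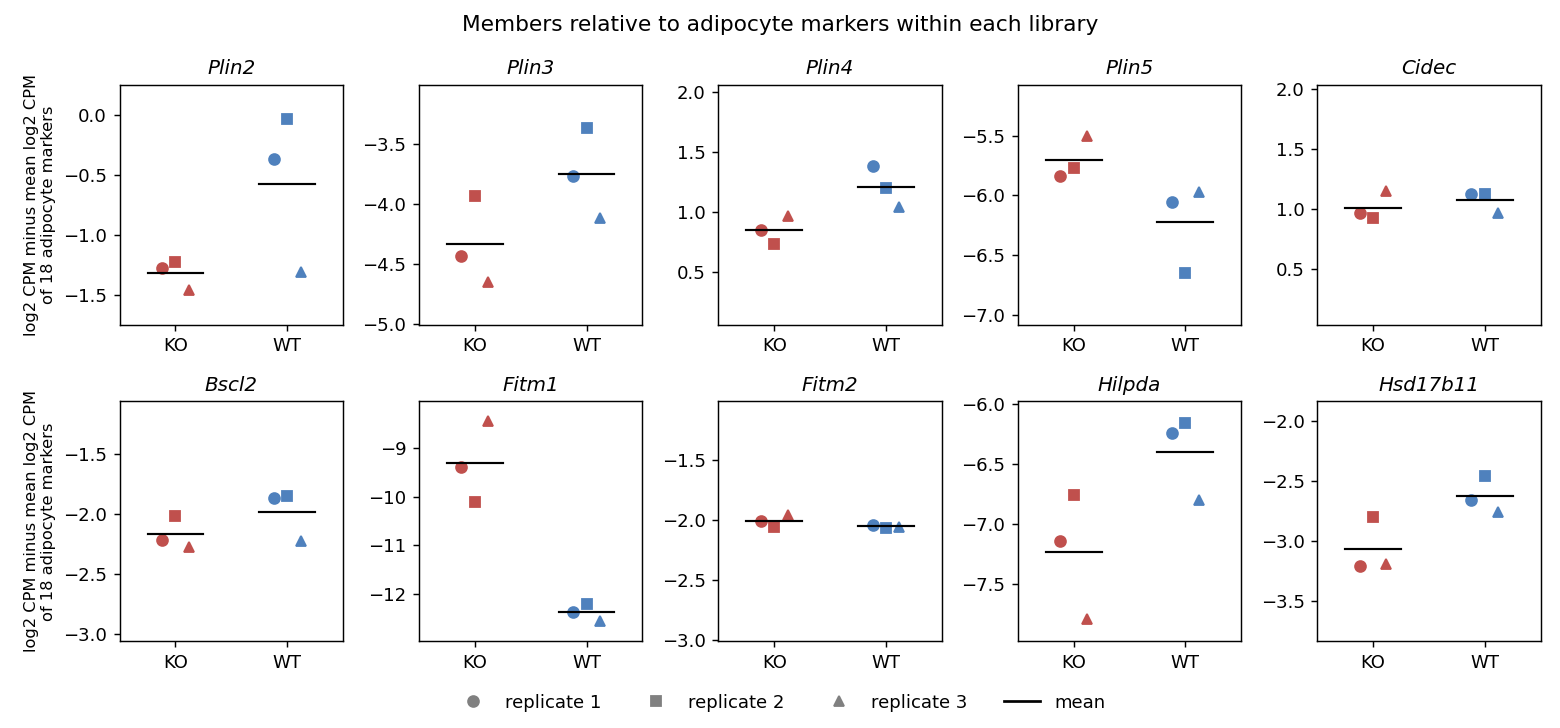
Log2 CPM of each gene minus the mean log2 CPM of 18 adipocyte markers in the same library, KO left of WT, 1 point per library and a line at the group mean; each panel has its own axis of at least 2 log2 units. Fitm2 and Cidec overlap between the groups, Plin4 and Hsd17b11 lie lower in KO and Plin5 higher; the WT points of Fitm1 are set by the added prior count and are not read.

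Other lipid droplet genes gave the setting for these values. Of 38 genes, 3 of them also adipocyte markers (Plin1, Lipe and Pnpla2), 36 were tested. In edgeR 2 rose and 0 fell, against 0.865% and 0.162% of all tested genes. Of the 36, 16 were above every WT library in all KO libraries, against 15.2% of all tested genes. The median log2 fold change was 0.31. Dgat2, which makes triglyceride, had 1082 ± 163 CPM in KO and 398 ± 46.7 CPM in WT, and Pnpla3, a droplet hydrolase, 73.1 ± 7.52 CPM in KO and 36.2 ± 4.99 CPM in WT (SD, n = 3 each; edgeR adjusted p = 0.0326 and 0.0370). Without KO replicate 1, KO replicate 3, WT replicate 1 or WT replicate 2 no gene of this list passed. Without KO replicate 2, 17 did, where edgeR called 14.5% of genes higher. Plin1 had 1266 ± 337 CPM in KO and 628 ± 71.2 CPM in WT, a log2 fold change of 1.01 (95% interval 0.47 to 1.55, edgeR adjusted p = 0.0687), larger than that of its relatives Plin2, Plin3 and Plin4; the difference between them was not tested. Among the other abundant genes, the acyl-CoA synthetase Acsl1 had a log2 fold change of 1.09, the lipases Pnpla2 and Lipe 0.70 and 0.86, and the caveolar genes Cav1 and Cavin1 0.67 and 0.30, with edgeR adjusted p from 0.0777 to 0.435.

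The remaining lists were read by count and median, and their calls depended on single libraries. Over all tested genes, edgeR called 0.865% higher and 0.162% lower, and DESeq2 called 7.34% higher and 600 of 16654 lower. In edgeR 9.79% were lower at an unadjusted p under 0.05. Of 18 adipocyte markers 1 rose (Slc2a4, the insulin-regulated glucose transporter) and 0 fell, against 14 in DESeq2 and 0 in limma-voom; 18 had a positive log2 fold change and the median was 0.77; Fabp4, a fatty acid carrier, had 9347 ± 2441 CPM in KO and 5003 ± 1049 CPM in WT, and Car3, a carbonic anhydrase, 9160 ± 2858 CPM in KO and 4807 ± 1332 CPM in WT (SD, n = 3 each). Of 20 targets of the PPAR nuclear receptors, 5 of them also adipocyte markers, 1 rose (Pex11a, a peroxisome protein) and 0 fell, against 13 in DESeq2 and 0 in limma-voom, with a median of 0.83; Lpl, lipoprotein lipase, had 5961 ± 1699 CPM in KO and 3253 ± 1087 CPM in WT. Of 10 endothelial markers 1 rose (Gpihbp1, which anchors lipoprotein lipase), against 4 in DESeq2 and 0 in limma-voom, and the median was 0.47; Pecam1 and Cdh5, junction proteins, had log2 fold changes of 0.02 and 0.54. Without KO replicate 2, edgeR called 17 adipocyte markers, 14 PPAR targets and 5 endothelial markers higher, where it called 14.5% of genes higher. It also called 1 PPAR target lower, against 1811 of 16656 genes. Without KO replicate 1, KO replicate 3, WT replicate 1 or WT replicate 2 it called 0 in each. Without WT replicate 3 it called 1 adipocyte marker higher, 0 PPAR targets and 0 endothelial markers. Slc2a4, Pex11a and Gpihbp1 were named after their values were seen. None of 10 progenitor, 4 tested epithelial and 10 B cell markers passed in edgeR, with medians of -0.50, -0.64 and -0.78 and 6, 1 and 0 of them lower at an unadjusted p under 0.05; DESeq2 called 3, 0 and 0 lower and limma-voom 0 in each. Without KO replicate 2, edgeR called 3 progenitor, 1 epithelial and 10 B cell markers lower, where it called 1811 of 16656 genes lower. It also called 1 progenitor marker higher. The collagens Col3a1 and Col1a1 had log2 fold changes of -0.68 and -0.49, the epithelial adhesion genes Cdh1 and Epcam -0.66 and -0.56, and the B cell genes Cd79a and Cd22 -0.67 and -0.72. The B cell markers summed to 364 to 1614 CPM in KO, highest in KO replicate 2, and 1403 to 1592 CPM in WT.

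The mean scaled profile of the 10 genes was 0.78, -0.32 and 1.06 in KO replicates 1, 2 and 3, against -0.33, -0.41 and -0.77 in WT replicates 1, 2 and 3. It includes Fitm1, whose WT values come from the added prior count. Among 10065 other genes with at least 10 CPM, those most like it were Fam149b, Mmadhc, Gsto1, Stx18 and Klb, with Pearson r from 0.995 to 0.998 over 6 libraries that share scaling and group structure. Such values are reached by picking among many genes over few libraries, and they are given as a description.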

How the data were processed

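The authors deposited estimated counts per Ensembl gene, 1 column per iWAT library, unscaled, with a column for each library; 9.53% to 11.1% of a column's values had decimals. Poly(A) libraries came from the Illumina Stranded mRNA Prep Ligation kit, per the labels' protocols. The submitters' processing notes name fastp, featureCounts, GRCm38 and GRCm39 without roles; quantifier, strand setting and build of this table are not given in the sources used here. Symbols, exon lengths and overlapping genes came from GENCODE M21 (26372 of 33200 identifiers matched).

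Counts were rounded and tested with edgeR 4.0.16 (R 4.3.3): TMM, filterByExpr, robust quasi-likelihood F-test, Benjamini-Hochberg over 16656 genes, two-sided. A standard error is the log2 fold change divided by the square root of F; 95% intervals use the test's degrees of freedom. Log2 CPM used a prior count of 2. Alternatives were DESeq2 1.42.0, limma-voom 3.58.1, RLE or library-total scaling, filters, thresholds, a block on replicate number, and omission of single libraries. The labels do not tell whether replicates share a litter or cage, so p-values measure the spread between these samples.

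The members and lists were chosen with earlier results of these data known. Named were all members, Nrep, the called and the 6 most abundant other droplet genes, the 2 most abundant genes per list and the 5 most like profiles; a few were added after their values were seen, as stated.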

Additional observations from a re-analysis of the deposited data

How the results depend on the processing

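The threshold of 0.10, the longest transcript as gene length, the counts without Fitm1, the Fitm1 bound without a library and the other settings for the marker lists were chosen after seeing the data. Members called higher in KO, Fitm1 among them in each count above 0, were 0 in the main test, 5 in DESeq2, 4 with no filter on low counts, 2 at an adjusted p of 0.10, and 0 to 7 on leaving out 1 library. Other lipid droplet genes called higher were 2, against 14 in DESeq2, 1 in limma-voom, 12 with no filter, 0 at an adjusted p of 0.01, 11 at 0.10, and 0 to 17 on leaving out 1 library. All tested genes called higher and lower were 144 and 27, against 1223 and 600 in DESeq2, 15 and 1 in limma-voom, 928 and 442 with no filter, 0 and 1 at an adjusted p of 0.01, 920 and 458 at 0.10, and 0 to 2410 and 1 to 1811 on leaving out 1 library; library totals alone gave 49 lower, with a median over all genes of -0.19 in place of -0.06. The cause of these shifts was not tested. Of 159 log2 fold changes of members under alternatives, 4 turned sign and 21 newly passed, of which 5 belong to Fitm1 and are not read. The turned signs were Plin2 at 0.18 without KO replicate 2, 0.03 without WT replicate 1 and 0.14 without WT replicate 2, and Plin3 at -0.0051 with library totals. Plin2 ranged from -0.27 to 0.18. Relative to Adipoq alone, Cidec turned to 0.0445.

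Same-numbered KO and WT deviations correlated at -0.01, 0.20 and 0.11 over genes. KO replicates 1, 2 and 3 correlated best with WT replicates 3, 2 and 3. With so few libraries, these values cannot decide whether same-numbered samples are paired, and the labels do not tell. With the replicate block 2 members other than Fitm1 (Plin5 and Fitm2), 12 other droplet genes and 790 higher and 435 lower genes were called. Fitm1 rests on 92 counts in all, so its level is the least precise of the members.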
